A study of Mus musculus with 28 samples.

Results

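Endocannabinoids are lipid messengers that neurons make on demand. 2-arachidonoylglycerol is made by the diacylglycerol lipases and anandamide by routes that include a phospholipase D acting on N-acyl phosphatidylethanolamine. They travel back across the synapse to presynaptic cannabinoid receptors, which lower transmitter release, and are then cleared by hydrolases. In the striatum, cannabinoid signalling is best known for its part in synaptic depression at inputs to medium spiny neurons (MSNs). The annotation holds 21951 protein-coding genes. The 8 genes described here were chosen by name and not by any measured value, though with earlier results of these data known. They are the receptor genes *Cnr1* and *Cnr2*, the synthesis genes *Dagla*, *Daglb* and *Napepld*, and the breakdown genes *Mgll*, *Abhd6* and *Faah*. All 8 were found in the annotation.

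The data are CUT&RUN (CnR) profiles of 2 histone marks in MSN nuclei of the adult mouse striatum. H3K4me3 marks the starts of active or poised genes, and H3K27me3 is laid down by Polycomb repressive complex 2 over repressed genes. A promoter with both marks is called bivalent. Nuclei were pulled out by INTACT, an affinity purification of tagged nuclei, from C57BL/6J mice of about 8 weeks and both sexes. That age is from the paper's methods, and its results section gives a wider range. The mice carried a Cre-dependent Sun1-sfGFP nuclear envelope tag, driven from the Rosa26 locus by the CAG promoter, together with A2a-cre (A2a MSNs, which carry the adenosine A2a and dopamine D2 receptors) or Drd1-cre (D1 MSNs). Each nucleus population is therefore defined by the Cre line, and any other cell in which Cre was ever active would carry the tag too. For each cell type and mark, 1 list pools 2 replicates, from the Abcam H3K4me3 and the Active Motif H3K27me3 antibodies. The 4 lists thus stand for 8 of the 28 samples, and they give no spread between mice, no error and no test across mice for any value below. The paper's methods speak of at least 2 biological replicates, but its reporting summary names 2 technical replicates. Whether the pooled replicates are separate mice is therefore unclear. In the paper, the genome-wide H3K27me3 correlation was lower between the D1 replicates than between the A2a replicates. The D1 value was about the same as that between A2a and D1 samples. The source name of the D1 H3K27me3 samples reads A2a, whereas D1 is given in the title and as the cell type. These samples were treated as D1, and the islands at the A2a and D1 marker genes given next run the way the D1 label says. Those markers were named after their values were seen, and all but *Gpr6* are shown in the paper with these same data. They are therefore no independent test of the label.

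The H3K4me3 lists held 22551 (A2a) and 20080 (D1) peaks and the H3K27me3 lists 60191 (A2a) and 45760 (D1) islands. The A2a islands hold 22091634 reads in 301 Mb and the D1 islands 7878685 reads in 184 Mb. The lowest read count of a listed island was 36 in A2a and 27 in D1. The paper found more H3K4me3 and H3K27me3 signal in peaks in A2a than in D1, after scaling to mapped reads. It proposes cell number, mouse age, immunoprecipitation, amplification or batch as sources, rather than biology. It then normalized the signals on genes of equal expression in the 2 cell types. The values of the lists used here carry no such normalization. Marker promoters were read to check the cell type labels. All 4 genes listed for striatal projection neurons carried H3K4me3 alone in both lists, and all 6 interneuron genes carried H3K27me3 alone in both. Of the 4 A2a markers, *Adora2a* and *Gpr6* had H3K4me3 alone in A2a and both marks in D1, with D1 islands of 4153 and 1265 reads, while *Drd2* and *Penk* carried both marks in both lists. A2a islands of 160 reads at *Drd2* and 200 at *Penk* stood against D1 islands of 559 and 1365 reads. All 3 D1 markers carried both marks in both lists, with the larger islands in A2a. The *Drd1* island held 1958 reads in A2a and 86 in D1, the *Pdyn* island 4641 and 50, and the *Tac1* island 9144 and 121. The islands at the A2a markers were thus the larger in the D1 list, although that list holds fewer reads in all, and those at the D1 markers were the larger in the A2a list. Promoter peaks were also listed at genes of other cells, for 2 (A2a) and 0 (D1) of 5 microglial genes, 1 and 1 of 4 astrocyte genes, 2 and 2 of 4 oligodendrocyte genes, and 1 and 2 of 3 genes of cortical excitatory neurons.

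A promoter was taken as 2 kb upstream to 1 kb downstream of the annotated 5′ end (TSS). In A2a, 7 of the 8 endocannabinoid genes had an H3K4me3 peak there, beside 58.2% of all protein-coding genes. In D1 the same 7 genes had one, beside 55.8%, and a peak in both lists was found at 55.6% of all. *Cnr2*, the gene of the cannabinoid receptor best known from immune cells, was the exception in both lists. H3K27me3 islands lay at the promoters of *Cnr1* and *Cnr2* in A2a, 2 of 8 genes beside 21.6% of all, and at 0 of 8 in D1 beside 15.3%. An island in A2a and none in D1 was found at 7.38% of all, and the reverse, found at 0 members, at 1%. With 8 genes, these shares are descriptions and stand close to the background for H3K27me3. In A2a 6 of the genes carried H3K4me3 only (48.7% of all protein-coding genes), *Cnr1* was bivalent (9.53%) and *Cnr2* carried H3K27me3 only (12.1%). Of the 8 genes in D1, 7 carried H3K4me3 only (50.2%) and *Cnr2* carried neither mark (34.5%). No member carried neither mark in A2a (29.7%). No member was bivalent (5.56%) or H3K27me3 only (9.71%) in D1. The 2 receptor genes were those whose state differed between the lists, as it did for 10.8% of all protein-coding genes.

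**Figure D1:**
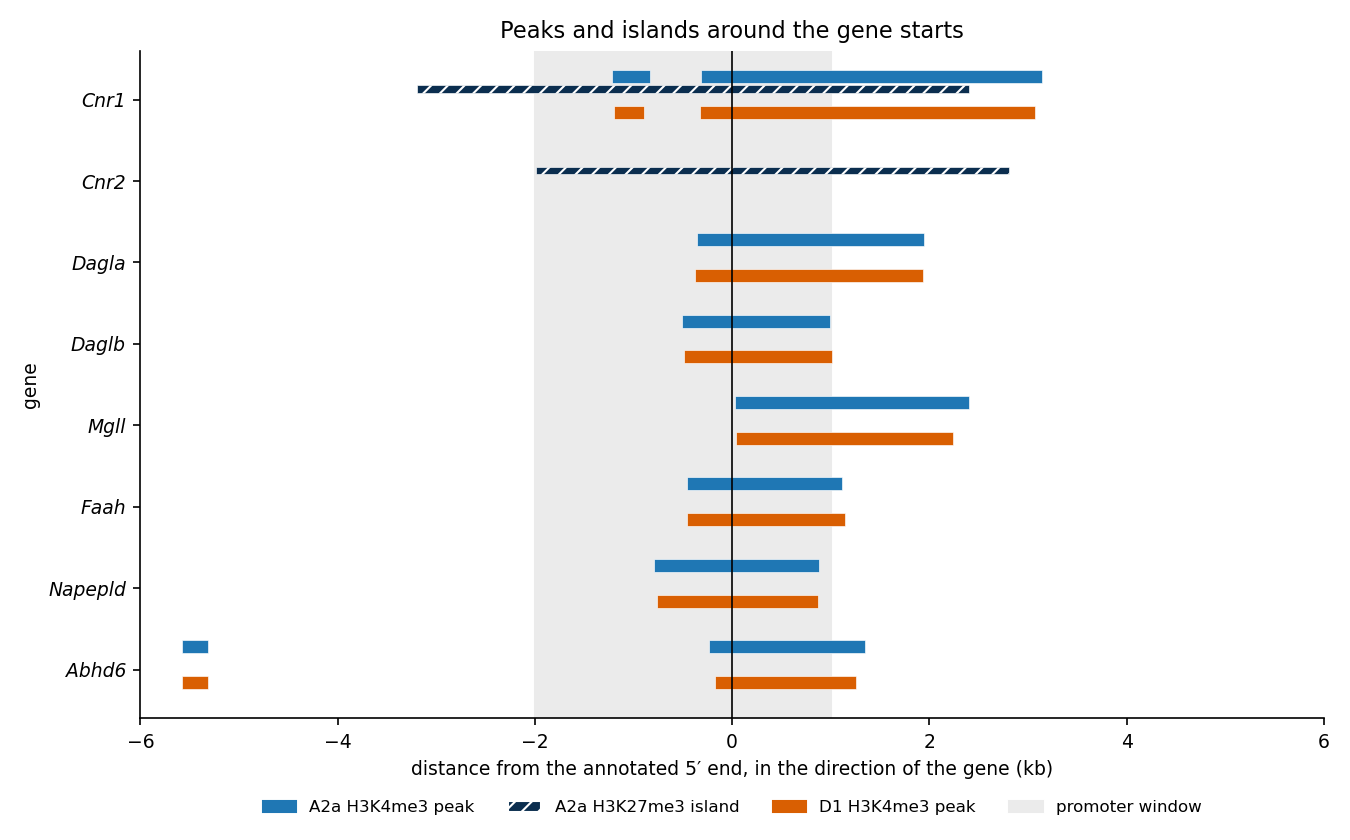
H3K4me3 peaks (plain bars) and H3K27me3 islands (hatched bars) of the A2a and D1 lists from 6 kb before to 6 kb after the start of each gene, with distance in kb on the x axis and the promoter window in grey. *Cnr1* carries the widest peaks and, in A2a, an island across its start, *Cnr2* carries an A2a island and no peak, and the enzyme genes carry peaks and no island.

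*Cnr1* encodes the CB1 receptor, the main cannabinoid receptor of neurons (mm10 chr4:33924593-33948831, plus strand). Its A2a H3K4me3 peak ran from 313 bp upstream to 3141 bp downstream of the TSS, over 3455 bp, with a fold enrichment of 2.86 over the local background and a −log10 q of 68.2. Its D1 peak ran from 325 bp upstream to 3068 bp downstream, over 3394 bp, with a fold enrichment of 2.89 and a −log10 q of 51.8. The peaks shared 97.5% of their joint length and had their summit at the same base, 853 bp downstream of the TSS in an intron. A fold enrichment is a peak's height relative to the background around it within 1 pooled library.

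The *Cnr1* peak was broad, and low by fold enrichment. By fold enrichment it stood above 0.802% of the strongest promoter peaks of protein-coding genes in A2a and 0.723% in D1. By length it stood above 98.8% of them in A2a and 99.1% in D1. It covered 13.0% of the gene in A2a and 12.7% in D1, whereas H3K4me3 peaks covered between 2.12% and 4.46% of each of the 6 enzyme genes over the lists. A weaker peak lay upstream in both lists, 389 bp long in A2a (fold enrichment 1.59) and 302 bp in D1 (fold enrichment 1.59). It sits within 1222 bp of the TSS. RefSeq lists predicted *Cnr1* transcripts that start up to 1422 bp upstream of the GENCODE start used here.

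The A2a H3K27me3 island at *Cnr1* spanned 5600 bp, from 3192 bp upstream to 2407 bp downstream of the TSS, and held 391 reads (exact 95% Poisson interval 353 to 432, counting error only). It stood at the 78.1 percentile of A2a islands by reads and at 69.8 reads per kb. It covered 78.8% of the H3K4me3 peak and all of the weaker upstream peak, and its downstream edge fell short of the peak's. The D1 list had no island at *Cnr1* and the nearest lay 83.8 kb from the gene. This pattern, bivalent in A2a and H3K4me3 only in D1, was shared by 2.56% of protein-coding genes. Among A2a islands within the same 10 percentile points by reads (percentiles 70 to 80), 72.1% overlapped a D1 island. Whether the read totals of the lists, the greater A2a signal in peaks or differences between replicates had a part was not tested. The islands at the A2a and D1 marker genes, which were named after their values were seen, ran the way the D1 label says.

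The sequence under the shared *Cnr1* summit is shown because both cell types place the height of the peak there, away from the start itself. It is taken from GRCm38.p6, chr4:33925346-33925546, plus strand, 100 bases on either side of the summit, and lies in an intron and outside any RefSeq or GENCODE exon. Capitals mark CpG dinucleotides.

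Cnr1 summit: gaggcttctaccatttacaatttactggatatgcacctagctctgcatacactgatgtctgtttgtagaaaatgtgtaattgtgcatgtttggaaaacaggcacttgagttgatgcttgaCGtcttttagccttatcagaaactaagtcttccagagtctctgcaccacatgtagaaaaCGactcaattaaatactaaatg

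This stretch had 2 CpGs and a GC content of 38.3%, higher than 3.51% of the windows around 22515 A2a summits, whose median was 55.7%. Its ratio of observed to expected CpG was 0.271, at the 20.1 percentile of those windows. Of 5 short motifs searched on both strands (the TATA box TATAAA, the GC box GGGCGG, the box CCAAT, the core TGACG of the cAMP response element, and the core GCATGC of NRF1 sites) it held TGACG, as did 14.8% of all summit windows. The start of the gene is different in base composition. The 300-base windows around RefSeq starts 329 bp upstream and 51 bp downstream of the GENCODE start held 40 and 33 CpGs, with observed to expected ratios of 0.928 and 0.930, at the 89.4 and 89.6 percentiles of 32851 RefSeq promoter windows. A later RefSeq start, 1787 bp downstream, had 5 CpGs and a ratio of 0.312.

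*Cnr2* encodes the CB2 receptor (mm10 chr4:135895394-135920207, plus strand). Neither list had an H3K4me3 peak at its start, at its later annotated start 16.4 kb downstream or anywhere in the gene. The nearest peaks lay 163 bp (A2a) and 138 bp (D1) beyond its 3′ end and covered the start of the neighbouring gene *Fuca1*. The A2a list had an H3K27me3 island from 1993 bp upstream to 2806 bp downstream of the *Cnr2* start, 4800 bp long with 223 reads (95% Poisson interval 195 to 254). In D1 the nearest island was 118.8 kb away. The limits given for the *Cnr1* island hold here too.

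The *Cnr2* island was a sparse one. Its 46.5 reads per kb stood above 1.79% of A2a islands, while by reads it stood at the 53.4 percentile. Both receptor islands were below the median read count of A2a promoter islands, 465. Among A2a islands between percentiles 50 and 60 by reads, where the *Cnr2* island falls, 49.4% overlapped a D1 island. H3K27me3 only in A2a with neither mark in D1 was found at 4.49% of protein-coding genes. CB2 is known from microglia. Of the 5 microglial marker promoters, *Cx3cr1* and *C1qa* showed the same pattern as *Cnr2*, with A2a islands of 160 and 707 reads and no mark in D1, *P2ry12* had an A2a peak with a fold enrichment of 4.49, *Tmem119* had an A2a peak and islands in both lists, and *Csf1r* had neither mark in either list. The part of microglial nuclei in these values was not tested.

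The sequence before the *Cnr2* start is shown as the member promoter with an island and no H3K4me3. It holds the 250 bases before the RefSeq start (GRCm38.p6 chr4:135894939-135895188, plus strand, all inside the A2a island). For comparison, the 250 bases before the start of *Abhd6*, the member with the highest −log10 q, follow (GRCm38.p6 chr14:8002638-8002887, plus strand). Capitals again mark CpG.

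Cnr2 upstream: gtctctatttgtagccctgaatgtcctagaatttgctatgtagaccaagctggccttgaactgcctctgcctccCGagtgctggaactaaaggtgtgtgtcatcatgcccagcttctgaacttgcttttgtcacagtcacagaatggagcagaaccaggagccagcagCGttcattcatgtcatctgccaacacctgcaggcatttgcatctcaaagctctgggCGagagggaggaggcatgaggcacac

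Abhd6 upstream: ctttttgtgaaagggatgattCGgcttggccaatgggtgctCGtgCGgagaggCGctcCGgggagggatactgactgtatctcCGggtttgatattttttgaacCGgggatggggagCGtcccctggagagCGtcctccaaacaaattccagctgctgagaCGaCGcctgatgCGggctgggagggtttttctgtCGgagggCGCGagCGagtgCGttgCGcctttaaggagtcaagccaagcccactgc

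The *Cnr2* stretch has 3 CpGs and the *Abhd6* stretch 18. Over 300-base windows the observed to expected CpG ratio at the *Cnr2* starts was 0.160 and 0.187, the lowest of the members, against a median of 0.384 over all promoter windows. RefSeq windows were found for 7 of the 8 genes, 12 windows in all, with no entry for *Dagla*. Apart from the late *Cnr1* start, every member window with an H3K4me3 peak had a ratio between 0.567 (*Daglb*) and 1.08 (*Mgll*). Of the 12 windows, 6 held the GC box GGGCGG on either strand, in 4 genes (*Cnr1*, *Mgll*, *Faah*, *Abhd6*), as did 35.7% of all promoter windows. The CCAAT box was found in 2 windows (37.4% of all), the cAMP response element core in 1 (20.8%), the NRF1 core in 1 (7.93%) and the TATA box in 0 (13.6%). Windows of 1 gene can overlap and are not independent.

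**Figure D2:**
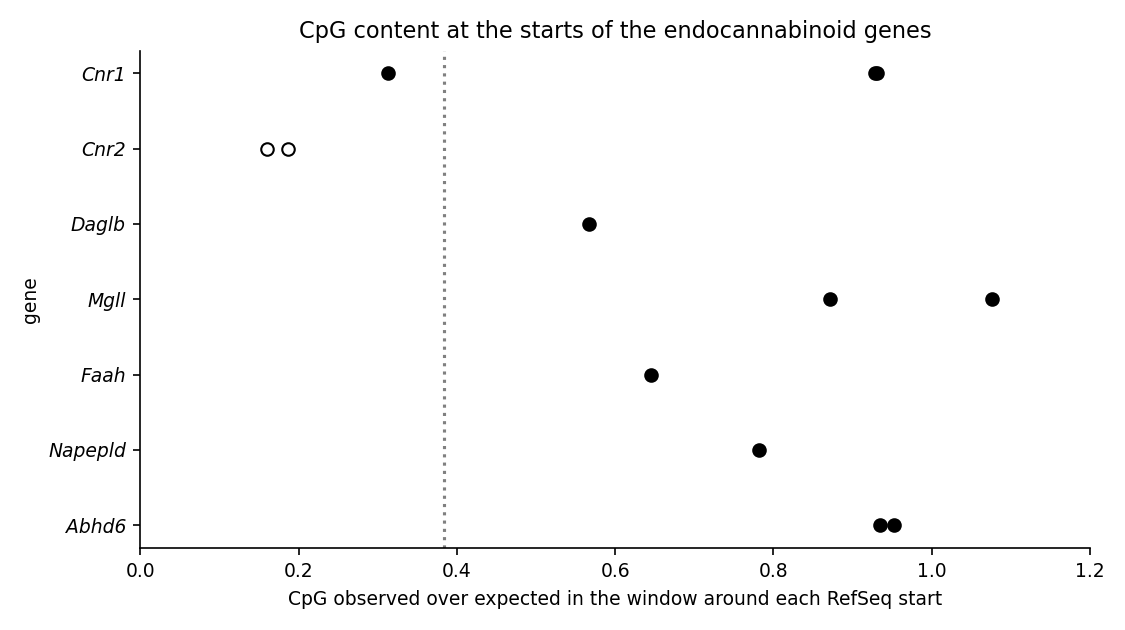
Ratio of observed to expected CpG (x axis) in the 300 bases around each RefSeq start of 7 endocannabinoid genes, with filled points for windows that overlap an A2a H3K4me3 peak and open points for windows that do not. The dotted line is the median over all RefSeq promoter windows, 0.384, and both *Cnr2* windows lie below it.

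*Dagla* and *Daglb* encode the lipases that make 2-arachidonoylglycerol, and DAGLα is the form that dominates in adult neurons. *Dagla* (mm10 chr19:10245265-10304877, minus strand) had promoter peaks of 2306 bp (A2a) and 2310 bp (D1), with fold enrichments of 6.34 and 5.80. *Daglb* (mm10 chr5:143464584-143505942, plus strand) had peaks of 1499 bp (A2a) and 1497 bp (D1), with fold enrichments of 7.93 and 8.72. The *Dagla* peak was thus the wider of the pair in both lists, and the lower by fold enrichment. By length it stood above 85.7% (A2a) and 89.0% (D1) of promoter peaks, and the *Daglb* peak above 40.7% (A2a) and 48.4% (D1). The summit of the *Dagla* peak lay 935 bp (A2a) and 937 bp (D1) inside the gene, in an intron. The *Daglb* summits lay 114 and 153 bp inside, in a coding exon. No island touched either gene. The nearest to *Daglb* was 75.6 kb away in A2a and 75.8 kb in D1, and to *Dagla* 12.7 kb in A2a and 225 kb in D1.

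*Napepld* encodes the N-acyl phosphatidylethanolamine phospholipase D that releases anandamide (mm10 chr5:21662901-21701396, minus strand). In A2a its promoter peak spanned 1677 bp at a fold enrichment of 9.30 and a −log10 q of 163. The D1 peak spanned 1631 bp, and its fold enrichment was 7.86 and its −log10 q 86.4. Its fold enrichment was the highest of the members in A2a, and in D1 it came after *Daglb*. The summits lay on opposite sides of the TSS, 90 bp downstream in A2a and 207 bp upstream in D1, near a RefSeq start 226 bp upstream. The gene held no island, and the nearest lay 8.205 kb (A2a) and 12.005 kb (D1) away.

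*Mgll* encodes monoacylglycerol lipase, the main enzyme that breaks down 2-arachidonoylglycerol in brain (mm10 chr6:88724412-88828360, plus strand). Its promoter peak began 33 bp (A2a) and 35 bp (D1) downstream of the TSS and ran to 2402 and 2242 bp, with fold enrichments of 6.06 and 5.34. No other member's main peak began downstream of its annotated start. The start of the antisense transcript *Gm26588*, 1448 bp away, lies inside this peak, so the signal cannot be assigned to *Mgll* alone. The A2a summit fell 1447 bp downstream of the *Mgll* start and the D1 summit 637 bp downstream. No island lay within 94 kb of the gene in either list.

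*Abhd6* encodes a membrane hydrolase of 2-arachidonoylglycerol (mm10 chr14:8002902-8056763, plus strand). Its promoter peak had the highest −log10 q of the members in both lists, 237 in A2a and 120 in D1, at the 97.8 and 87.9 percentiles of the lists. The fold enrichments were 8.81 and 7.64 over 1579 and 1427 bp. Its nearest islands, 8.10 kb (A2a) and 10.9 kb (D1) upstream, overlapped the neighbouring gene *Dnase1l3*.

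*Faah* encodes fatty acid amide hydrolase, which breaks down anandamide (mm10 chr4:115967145-116017926, minus strand). In A2a its promoter peak spanned 1580 bp at a fold enrichment of 8.09 and a −log10 q of 74.7. The D1 peak spanned 1599 bp, and its fold enrichment was 7.09. Its −log10 q there, 41.1, was the lowest of the members in that list. In A2a the lowest was that of *Cnr1*. No island lay in the promoter, and the nearest to it was 28.5 kb away in A2a and 34.3 kb in D1.

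H3K27me3 did reach the annotated span of *Faah* at its 3′ side in both lists. In A2a an island ran from 29.5 to 43.1 kb downstream of the TSS with 1149 reads, and the next from 43.9 to 56.5 kb with 1245 reads. In D1 an island ran from 35.3 to 42.3 kb with 298 reads, and the next from 45.3 to 53.9 kb with 340 reads. The D1 islands lay wholly inside the A2a islands. They covered 40.3% of the annotated gene in A2a and 24.5% in D1. However, the coding transcripts of *Faah* end 21.3 kb from the TSS, and only annotation outside the protein-coding transcripts reaches the islands. The gap between the coding end and the nearest island was 8.27 kb in A2a and 14.1 kb in D1. Further islands followed beyond the annotated gene as far as *Dmbx1*, a homeobox gene, where an A2a island was 31000 bp long with 4081 reads and stood at the 99.5 percentile of its list.

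Over the annotated spans, 3 of 8 members held an island in A2a (27.7% of protein-coding genes) and 1 of 8 in D1 (21%), with 2 in A2a and not in D1 (7.94%). Over the coding transcripts alone, A2a had 2 such members (27.4%) and D1 had 0 (20.7%), so *Faah* left the count in both. *Faah* was the member with islands in both lists, with 91.4 reads per kb in A2a and 40.9 in D1. The log2 ratio of D1 to A2a was −1.16, and −0.31 relative to the median of the 4342 genes with an island in both lists, which was −0.85. A centred ratio past 2-fold was found at 0.23% of those genes, and *Faah* was not among them. Its ratio stood at the 8.53 percentile of those genes. The reads were divided by different spans, 26.2 kb of islands in A2a and 15.6 kb in D1.

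**Figure D3:**
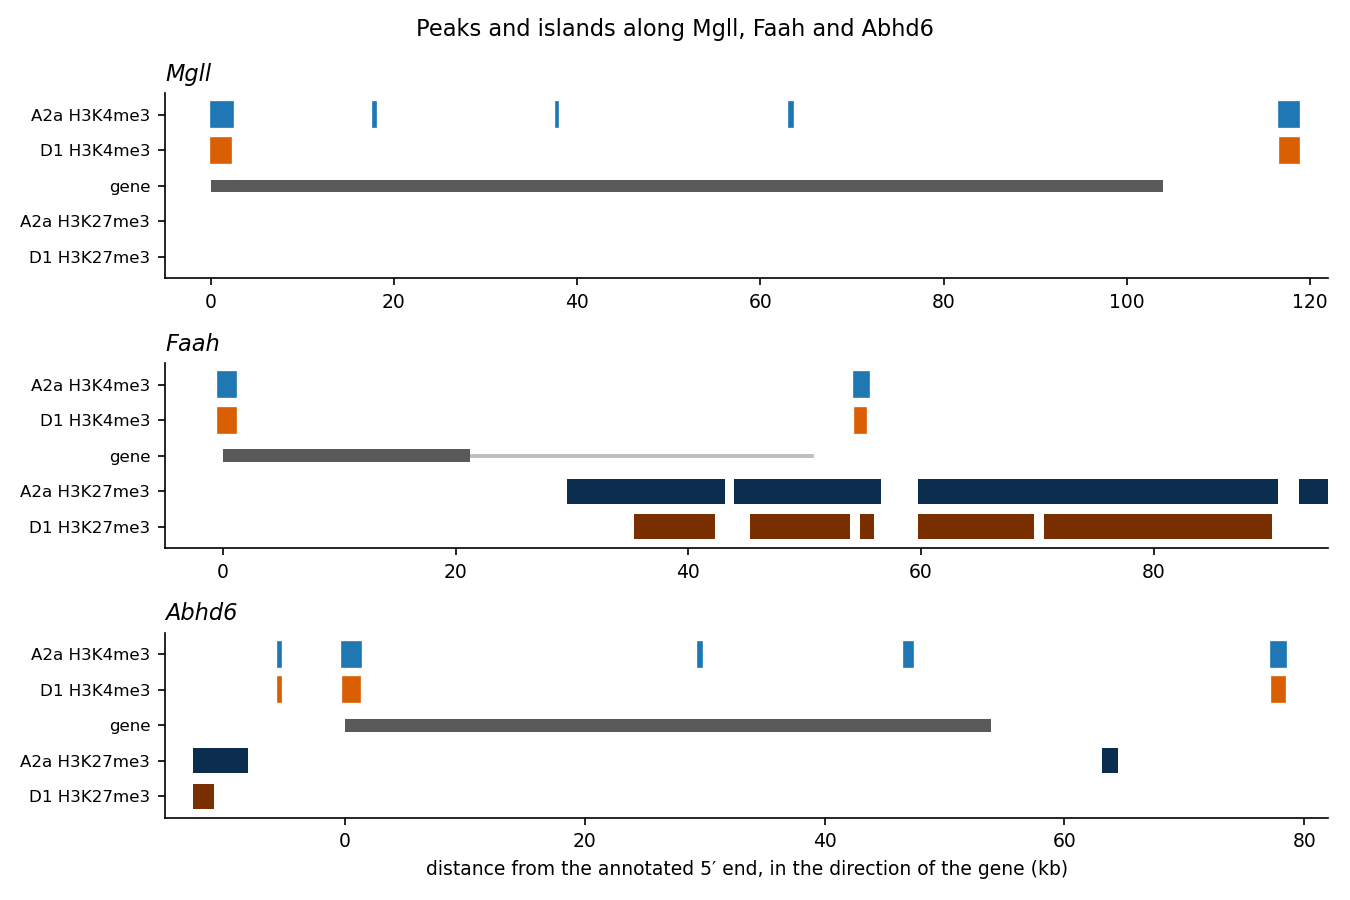
H3K4me3 peaks and H3K27me3 islands along *Mgll*, *Faah* and *Abhd6*, with distance from the annotated start in kb on the x axis and 1 row per list. The grey row is the gene, thick over its coding transcripts and thin over the rest of the annotation. The *Mgll* and *Abhd6* peaks inside the genes and away from their promoters are in the A2a row alone. The *Faah* islands begin past the end of its coding transcripts.

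**Figure D4:**
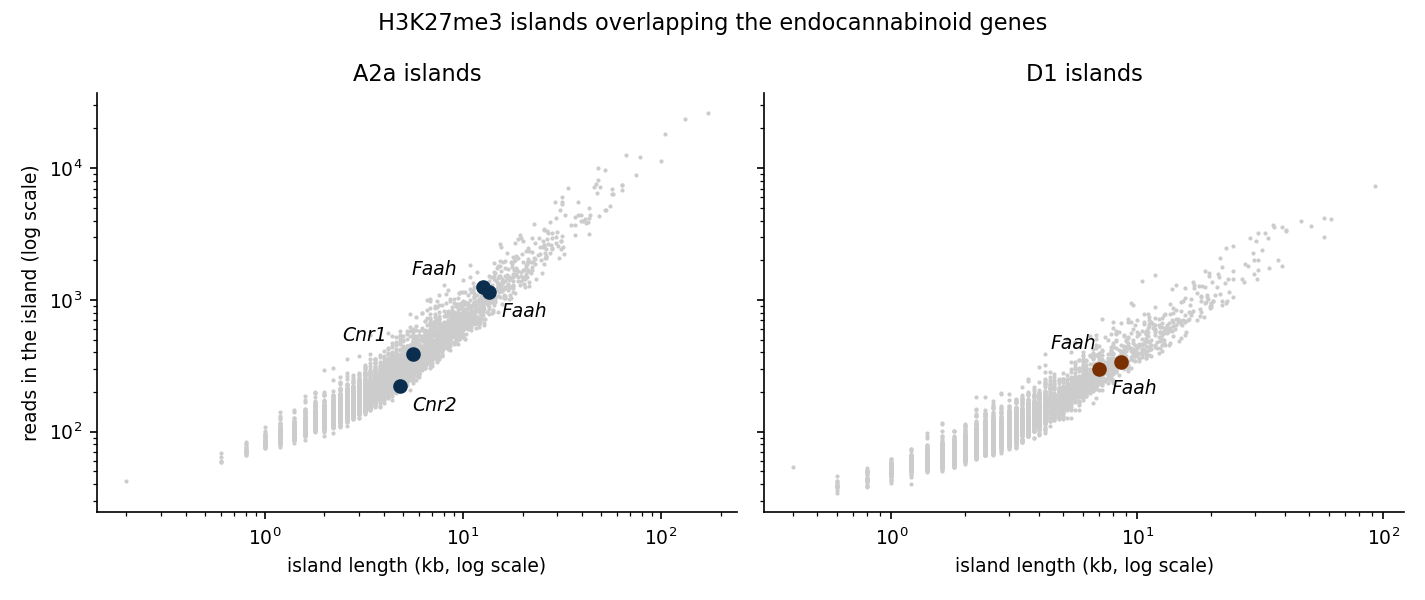
Reads against length, both on log scales, for islands of the A2a and D1 lists (grey, every 10th island in order of position) and for those that overlap the annotated span or the promoter of an endocannabinoid gene (coloured, named). The *Cnr1* and *Cnr2* islands are in the A2a panel alone, and *Faah* has islands in both panels.

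Set beside each other, the promoter peaks of the 7 genes differed little between the lists. The share of the joint length that the peaks had in common was between 90.4% (*Abhd6*) and 98.6% (*Faah*). The log2 ratio of fold enrichment, D1 to A2a, was positive for *Daglb* (0.14) and *Cnr1* (0.01) and negative for the other 5, down to −0.24 for *Napepld*. Over the 12204 genes with a promoter peak in both lists, 58.6% had a lower fold enrichment in D1 and the median log2 ratio was −0.05. Relative to that median, the members ran from −0.20 to 0.18, and 0 of 7 were past 2-fold, as 0.385% of the 12204 genes were. The range from the 5th to the 95th percentile of all those genes, −0.48 to 0.30, held all 7.

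Rank within each list by −log10 q, a value that rises with read depth, was also read for the 7 peaks. The lists differ in length (22551 and 20080 peaks), so the ranks are set side by side as a description and not as a change of the mark. The rank in D1 was the lower for all 7, by 14.5 percentile points for *Napepld* (85.6 to 71.1), 9.97 for *Mgll*, 9.93 for *Abhd6*, 8.04 for *Faah*, 7.57 for *Dagla*, 1.63 for *Daglb* and 0.81 for *Cnr1* (52.3 to 51.5). The median difference over all 12204 genes was −3.83 points, so a lower rank in D1 was the more common direction there too. The range from the 5th to the 95th percentile of those genes, −20.3 to 15.2, held all 7 members. Without values for each replicate, these differences could not be set against the spread between replicates.

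**Figure D5:**
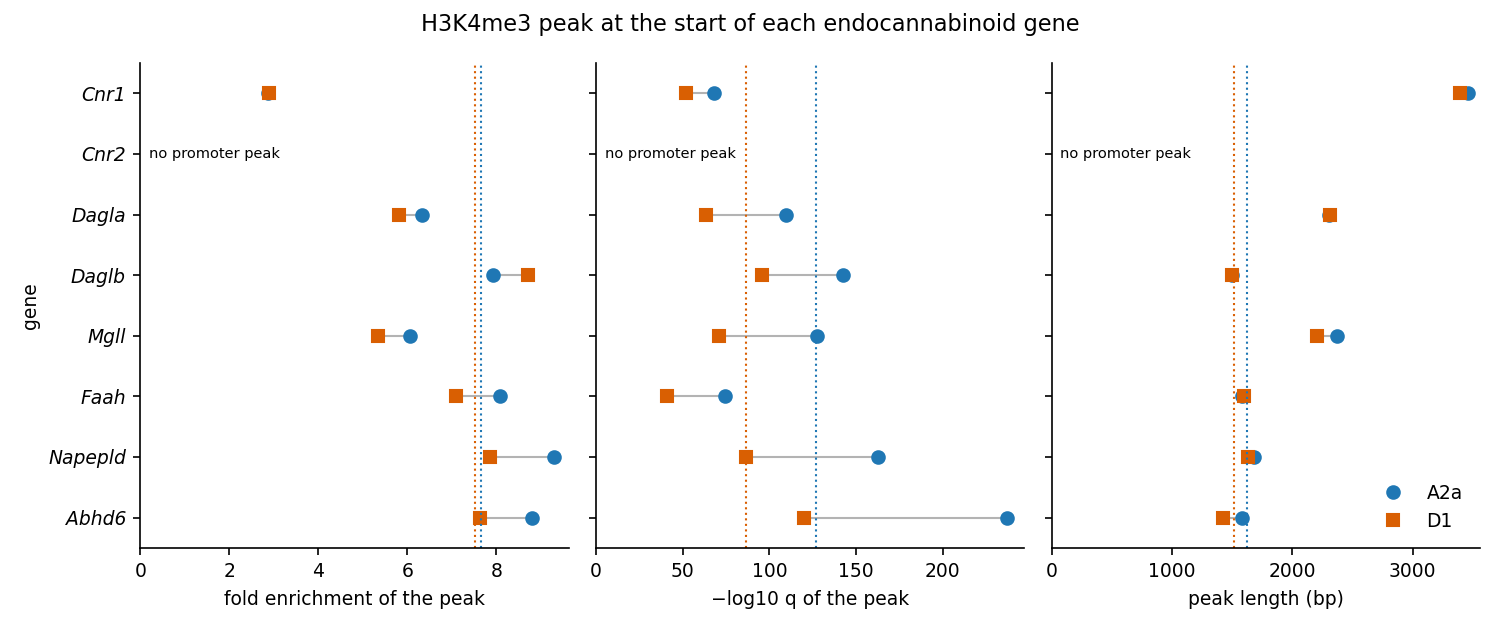
Fold enrichment, −log10 q and length in bp (x axes) of the strongest promoter H3K4me3 peak of each gene in the A2a (circles) and D1 (squares) lists. Dotted lines are the medians over protein-coding genes with a promoter peak, and *Cnr1* is lowest in fold enrichment and longest in both lists.

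H3K4me3 peaks inside the genes and away from their promoters were listed in A2a and not in D1. *Mgll* had 3, *Abhd6* had 2 and *Dagla* had 1, all in introns. Genes with such a peak made up 18.6% of protein-coding genes in A2a and 16.1% in D1, against 3 of 8 and 0 of 8 members. Over all genes, 31.6% of the 6503 such A2a peaks overlapped no D1 peak, and 10.1% of the 5206 such D1 peaks overlapped no A2a peak. Most of the members' peaks were weak. Those of *Dagla*, *Abhd6* and the first 2 of *Mgll* had −log10 q values between 4.37 and 7.87, in the lowest 20% of the list. Of A2a peaks below percentile 10, 25.7% overlapped a D1 peak, and of those between percentiles 10 and 20, 40.8%.

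The remaining *Mgll* peak was stronger. It lay 63.1 to 63.5 kb downstream of the TSS, 424 bp long, with a fold enrichment of 7.03 and a −log10 q of 18.95, at the 31.2 percentile of the list. Between percentiles 30 and 40, 90.9% of A2a peaks at any location, promoters included, overlapped a D1 peak and this one did not. Of A2a peaks in a gene and outside its promoter, at all ranks, 31.6% overlapped no D1 peak. Its summit was 184 bp from the start of *Gm43937*, a locus that the annotation lists as still to be experimentally tested. The 201 bases around this summit (GRCm38.p6 chr6:88787535-88787735, plus strand) are shown because it is the strongest member peak listed in 1 cell type.

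Mgll intron summit: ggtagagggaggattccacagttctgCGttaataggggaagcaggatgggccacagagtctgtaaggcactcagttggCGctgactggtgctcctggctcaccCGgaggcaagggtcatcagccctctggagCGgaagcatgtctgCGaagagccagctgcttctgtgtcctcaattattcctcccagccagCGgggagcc

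It had 6 CpGs, a GC content of 59.2% and an observed to expected CpG ratio of 0.345, at the 28.0 percentile of A2a summit windows. None of the 5 motifs was found in it.

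The genes nearest to *Cnr1* in pattern, by the summed difference of 4 percentiles (promoter H3K4me3 and H3K27me3 in each list), were *F2r* (3.26 points in all), *Clic4* (3.94) and *Fmn1* (5.51). For *F2r* the percentiles were 51.9 and 50.3 for H3K4me3 in A2a and D1, and 76.5 for the A2a island, with none in D1. For *Cnr2*, *Abo*, *Klk7* and *Npffr1* matched exactly, each with an A2a island at the 53.4 percentile and no other mark.

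In 27 other genes of the pathway, 18 had a promoter peak in A2a and 17 in D1, beside 58.2% and 55.8% of protein-coding genes. A promoter island lay at 5 in A2a and 4 in D1, beside 21.6% and 15.3%. All 4 carrier and partner genes carried H3K4me3 only in both lists. Among the 12 further synthesis genes, *Plcb4*, a phospholipase C, was bivalent in both lists, with islands of 75.6 kb (9455 reads) in A2a and 38.6 kb (2868 reads) in D1. *Inpp5d*, a phosphatase known from blood cells, had an A2a peak with a fold enrichment of 4.10 and no mark in D1. Among the 6 further breakdown genes, the lipoxygenase genes *Alox12* and *Alox15* carried H3K27me3 only in both lists. Among the 5 other receptor genes, *Ppara* was bivalent in both lists, and the capsaicin receptor gene *Trpv1* carried H3K27me3 only in A2a (328 reads) and neither mark in D1. The promoter state differed between the lists for 2 of these 27 genes and for 2 of the 8 members, beside 10.8% of protein-coding genes.

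Promoter islands, found at 21.6% (A2a) and 15.3% (D1) of protein-coding genes, were also counted for other receptor systems of MSNs. Of 5 dopamine receptor genes, 4 had a promoter island in each list, and of 8 opioid peptide and receptor genes 6 had one in A2a and 4 in D1. Of 4 adenosine receptor genes, 1 had an island in A2a and 2 in D1. The *Cnr1* island, with 391 reads, was larger than that of *Drd2* in A2a (160 reads) and smaller than that of *Drd1* in A2a (1958 reads). *Oprk1*, the κ-opioid receptor gene, had the same pair of states as *Cnr1*, with an A2a island of 168 reads and none in D1. *Oprm1* and *Pomc* had the same pair as *Cnr2*, with A2a islands of 199 and 255 reads. *Adora2a* and *Oprd1* went the other way, with H3K4me3 only in A2a and both marks in D1, where their islands held 4153 and 294 reads. *Adora2b* was bivalent in A2a and carried H3K27me3 only in D1. The remaining genes of these lists with islands kept 1 state in both lists, both marks for *Drd1*, *Drd2*, *Drd4*, *Penk* and *Pdyn* and H3K27me3 only for *Drd5* and *Pnoc*. These counts are over small lists and were not tested.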

How the data were processed

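CnR reads were mapped by the authors to mm10 with Bowtie2 (version 2.1.0 in the submitters' processing notes), filtered with SAMtools (version 0.1.19) at a mapping quality of at least 20, deduplicated, and selected for inserts of 150 to 500 bp. For H3K4me3, the authors ran MACS2 with a q-value cut-off of 0.01. The values deposited per peak are a fold enrichment (a ratio to the local background), −log10 p and q values, and a score derived from q. The authors called H3K27me3 islands with SICER (windows of 200 bp, gaps of 600 bp, false discovery rate 0.01) against a control that the paper does not name, and the deposited value of an island is its count of reads, not normalized for depth. Library totals are not in the lists, so depth per library is unknown, and the absence of a region from a list does not show that the mark was absent.

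Genes and starts came from GENCODE vM21 on GRCm38, and sequences from RefSeq (GRCm38.p6). The 148477 regions of the lists on assembled nuclear chromosomes all fell inside the chromosome ends of that build, and the 12 RefSeq promoter entries of the members were identical to the genome sequence. A region counted as overlapping from 1 bp. Percentiles are within a list by −log10 q or by reads, with tied values split evenly around the rank. When a gene had several promoter peaks, the one with the highest −log10 q was used. Ratios of D1 to A2a were centred on the median over protein-coding genes, and 2-fold was the threshold. Intervals on reads are exact Poisson intervals. With both replicates pooled in each list, no test was made. The other 20 samples, which are N2a cells, controls and further antibodies, were not analysed here.

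The members and gene lists were chosen with earlier results of these data known. Named genes are the 8 members, the 3 genes most like *Cnr1* and *Cnr2*, and those of the pathway and comparison lists with a promoter island or with a state that differed between the lists. The marker genes and the neighbours (*Fuca1*, *Gm26588*, *Dnase1l3*, *Dmbx1*, *Gm43937*) fall outside this rule and were named after their values were seen. The promoter overlap and the centring of fold enrichment were tested on simulated peaks. Islands, spans of genes and promoter states were not simulated. Software was Python 3.11.15 with scipy 1.17.1, matplotlib 3.10.9 and numpy 2.4.6.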

Additional observations from a re-analysis of the deposited data

How the results depend on the processing

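The 15 counts of members (with a promoter peak, a promoter island, an island in the gene, each promoter state, and a difference past 2-fold) were recomputed under 11 other settings. These changed the promoter window (1 kb or 5 kb either side), the start (any annotated transcript), the overlap (200 bp), the peaks (−log10 q of at least 5, or equal numbers of the strongest), the islands (at least 2000 bp, merged within 5 kb, or equal numbers of the strongest), the measure (total bp of peaks) and the span of the gene. Of 108 recomputed counts, 107 stayed within 1.5 times the reported count. The exception was the number of members with an island in the gene in D1, which was 0 over the coding transcripts in place of 1. That span was chosen after seeing the data. With all annotated genes as the background, 30.1% had a promoter peak in A2a in place of 58.2%. Ranks of single genes depended on the measure. In A2a the *Cnr1* peak was at the 52.3 percentile by −log10 q, 3.38 by fold enrichment and 99.2 by length, and the *Cnr2* island at the 53.4 percentile by reads and 1.79 by reads per kb. No paired analysis was possible because each list pools its replicates and carries no replicate number, and for the same reason no replicate could be left out.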

Other observations

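Several peaks and islands lay outside the promoters and annotated spans of the genes and belong to no comparison above. A peak lay past the annotated end of *Faah* in both lists, 54.3 kb downstream of its start, 1264 bp long in A2a (fold enrichment 10.1) and 979 bp in D1 (fold enrichment 7.66). No annotated start lies inside it, and an H3K27me3 island overlapped it in each list. A short peak lay 5.3 to 5.6 kb upstream of *Abhd6* in both lists, with fold enrichments of 4.58 in A2a and 4.34 in D1. In D1 alone, a peak of 516 bp lay 22.9 to 23.4 kb upstream of *Cnr1*, with a fold enrichment of 3.11 and a −log10 q of 2.83, at the 0.635 percentile of the list. In A2a alone, an island of 3.0 kb with 155 reads began 42.8 kb downstream of the *Cnr1* start, beyond the gene, and an island of 2.4 kb with 144 reads lay 9.39 to 11.8 kb upstream of *Cnr2*.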
